A study of Mus musculus with 8 samples.

Results

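The circles described here are closed RNA loops made from 6 genes of membrane trafficking and cell polarity: Stam, Ehbp1, Erbin, Epb41l5, Pik3c2a and Zdhhc20. They were chosen by gene name: every circle that the deposited table assigns to one of these genes was taken, which gave 74 of 27391 circles and 6 of 6492 host genes. The genes were picked with the levels of the same 8 libraries known, so the differences between the surgical groups given below describe these libraries, and a p-value beside them is no independent evidence. The study compared hearts of male wild-type (WT) mice 8 weeks after transverse aortic constriction (TAC), a band on the aorta that makes the left ventricle pump against a raised pressure, with hearts of male WT mice 8 weeks after a sham operation. Both groups had 4 mice, each sequenced as its own library, and the labels name no transgene and no drug. The labels state neither strain nor age.

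Circular RNAs arise when the splicing machinery joins the 3′ end of an exon to the 5′ end of that exon or of one upstream, and they are recognised by reads that cross this back-splice junction. The 6 host genes encode proteins that sort, move or anchor membrane proteins. Stam is an adaptor that captures ubiquitin-tagged receptors on early endosomes for degradation, Ehbp1 links endocytic recycling carriers to the actin skeleton, and Pik3c2a is a class II phosphoinositide kinase that makes lipid signals on clathrin-coated pits and endosomes. Zdhhc20 attaches palmitate to membrane proteins. Erbin is a scaffold with leucine-rich repeats and a PDZ domain that binds the receptor ErbB2 at basolateral membranes, and Epb41l5 is a FERM-domain protein that works with the Crumbs complex in epithelial polarity. None of these roles was measured here: the values count circles, not the linear messenger RNAs or the proteins.

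In each gene the circle with the largest mean level over the 8 libraries is called the leading circle. The junctions of the leading circles are shown because each one is the sequence by which the circle was told apart from the linear transcript. They were read 5′ to 3′ from GENCODE M21 transcripts (GRCm38, the same assembly as mm10), with the last 20 bases of the last exon in lower case and the first 20 bases of the first exon in capitals. Coordinates are mm10. For Erbin only the end of the last exon is printed, since its first exon opens in the 5′ untranslated region (UTR).
Stam exons 3 to 5, chr2:14115817-14117535, plus strand: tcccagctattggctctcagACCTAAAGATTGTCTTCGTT
Pik3c2a exons 5 to 8, chr7:116387844-116391393, minus strand: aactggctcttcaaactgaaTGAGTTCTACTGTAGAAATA
Zdhhc20 exons 4 to 7, chr14:57856610-57865641, minus strand: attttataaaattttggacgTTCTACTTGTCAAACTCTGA
Ehbp1 exons 16 to 21, chr11:22053432-22068506, minus strand: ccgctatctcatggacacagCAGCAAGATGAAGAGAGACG
Erbin exons 2 to 4, chr13:103884143-103889285, minus strand: actggatgtcagcaaaaatg
Epb41l5 exons 17 to 20, chr1:119567796-119579077, minus strand: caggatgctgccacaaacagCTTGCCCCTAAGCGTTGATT

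Several further circles of the same genes reuse a side of these junctions. The pairs below are shown because the shared side is the same exon end or exon start as in the leading circle, so that a read covering only that side cannot tell the circles apart.
Stam exons 2 to 5, sharing the end of exon 5: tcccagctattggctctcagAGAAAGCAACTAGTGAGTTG
Ehbp1 exons 18 to 21, sharing the end of exon 21: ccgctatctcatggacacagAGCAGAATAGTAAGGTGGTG
Zdhhc20 exons 4 to 8, sharing the start of exon 4: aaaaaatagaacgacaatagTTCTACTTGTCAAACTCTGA

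Read depth differed widely between the 8 libraries and limits every value below. TAC replicates 1 to 4 held 33132, 1119, 21074 and 36120 back-spliced reads, and sham replicates 1 to 4 held 40796, 3963, 17890 and 100142. Levels are given as the authors' normalised reads, that is reads divided by a size factor of the library, and they are not scaled by circle length. A single read was therefore worth 5.77 normalised reads in TAC replicate 2 and 4.54 in sham replicate 2, against 0.195 to 1.03 in the other 6 libraries. A value of 0 allows up to 3 reads, which is 17.3 normalised reads in TAC replicate 2 and 13.6 in sham replicate 2. These shallow libraries also differed from their groups in circle length. The spliced length that divides a library's reads into equal parts was 542, 334, 519 and 498 nt in TAC replicates 1 to 4 and 394, 491, 368 and 353 nt in sham replicates 1 to 4, so TAC replicate 2 had a length like that of the sham libraries and sham replicate 2 a length like that of the TAC libraries. In the share of Ehbp1 reads given below, TAC replicate 2 was at 66.7% of 3 reads, against 70.3 to 78.6% in the other TAC libraries. Sham replicate 2 was at 25% of 20 reads, against 0.971 to 1.29% in the other sham libraries. Whether the 2 labels were exchanged was not tested. Sham replicate 4 held 17.9 reads per detected circle, against 1.97 to 4.49 in the other libraries. For the circles in the limma test the fold changes are therefore also given with TAC replicate 2 and sham replicate 2 left out.

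The 6 genes made very different numbers of circles. Pik3c2a gave 22, Erbin and Zdhhc20 14 each, Ehbp1 13, Epb41l5 7 and Stam 4, where the median host of the table had 2 circles. Only 99 of the 6492 hosts, Pik3c2a included, had 22 circles or more. All 74 circles matched annotated exon borders and were typed as exonic circRNA by the table. No circle used the first or the last exon of its transcript, 2 were made of a single exon, 69 lay wholly in coding sequence and 5 reached into a UTR. The length of 25 of the 74 was a multiple of 3.

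Most of the circles were rare. Of the 74 circles, 44 (59.5%) were seen in 1 library, close to the 61.7% over all circles, and 29 rested on 1 read. Together the 74 circles collected 2322 reads, 405 in TAC libraries and 1917 in sham libraries, and the 6 leading circles held 1838 of them (79.2%). Reads were found in both groups for 22 circles, in TAC libraries only for 30 and in sham libraries only for 22. Depth differed between the libraries, and its part in those counts was not tested. TAC replicates 1 and 4 had the most detected circles of any library, 10786 and 11550. The same counts over all circles are not given here, so these counts, and those per gene below, mark no trait of the 6 genes. Of the 44, 10 circles were seen in sham replicate 4 alone and 9 of these had at least 5 reads there, whereas the 34 circles confined to another single library had at most 2 reads.

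**Figure D1:**
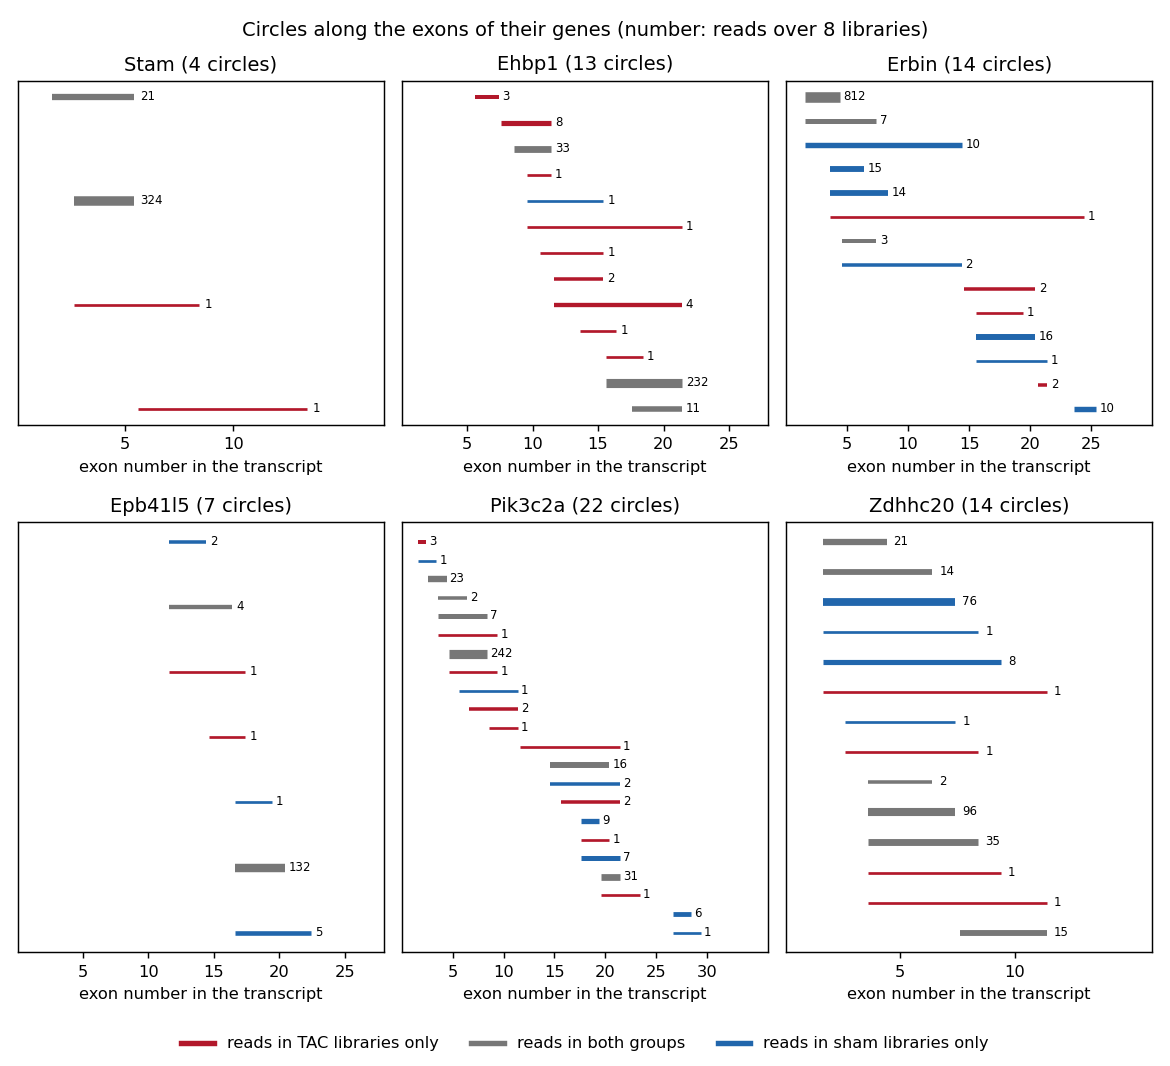
Map of the 74 circles along the exon numbers of their transcripts, 1 bar per circle, with thicker bars for more reads and the read total over 8 libraries beside each bar. Colour gives the groups with reads: red for TAC libraries only, grey for both, blue for sham libraries only. A single grey bar held most reads in Stam (324), Ehbp1 (232), Erbin (812), Epb41l5 (132) and Pik3c2a (242), while in Zdhhc20 the reads were spread over several bars.

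Circles of a gene often reused a splice site. Of the 74 circles, 69 (93.2%) shared their start or their end with another circle of the same gene, against 83.2% of the 19608 circles of other hosts with at least 4 circles. In Zdhhc20, 6 of 14 circles began at exon 2 and 5 at exon 4. In Pik3c2a, 5 of 22 circles ended at exon 21, and in Ehbp1 4 of 13 ended at exon 21, the end of the leading circle. These shares were not tested, because circles of 1 gene are not independent and the share grows with the number of circles.

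The leading circles of Stam, Zdhhc20, Erbin and Pik3c2a were shorter than the median circle seen in at least 4 libraries, and those of Epb41l5 and Ehbp1 were longer. They measured 319 nt (Stam), 345 nt (Zdhhc20), 364 nt (Erbin), 377 nt (Pik3c2a), 456 nt (Epb41l5) and 742 nt (Ehbp1), where that median was 438 nt. Their median GC content was 39.2% against 48.0% for all circles seen in at least 4 libraries. The introns flanking them had medians of 16629 nt upstream and 11831.5 nt downstream, against 9329 and 7955 nt. The Erbin circle carries 57 nt of 5′ UTR and 307 nt of coding sequence, which includes the annotated start codon, and the other 5 lie wholly in coding sequence.

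Levels are described first for the endosomal adaptor and the lipid kinase. The Stam circle of exons 3 to 5 had 2.97, 0, 2.06 and 3.18 normalised reads in TAC replicates 1 to 4, against 7.96, 9.09, 18.2 and 52.1 in sham replicates 1 to 4. Every TAC library was below every sham library, and sham replicate 4 was the highest of all. The circle averaged 2.05 ± 1.45 normalised reads in TAC and 21.9 ± 20.7 in sham hearts (SD, n = 4 each), a log2 fold change of -3.48 ± 1.49 (SE) by limma, or -2.78 ± 0.57 without the shallow libraries. The other Stam circle seen in at least 4 libraries, exons 2 to 5, had 0.744, 0, 0 and 2.54 in TAC against 2.28, 0, 0 and 1.95 in sham libraries, so its groups overlapped entirely while the leading circle's did not. Its log2 fold change was -0.26 ± 1.29, or -0.35 ± 1.29 without the shallow libraries.

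The Pik3c2a circle of exons 5 to 8 had 5.20, 0, 2.06 and 1.27 normalised reads in TAC replicates 1 to 4, against 20.5, 9.09, 24.8 and 28.2 in sham replicates 1 to 4. The groups did not overlap, with means of 2.13 ± 2.22 in TAC and 20.6 ± 8.34 in sham hearts (SD, n = 4 each) and a log2 fold change of -3.82 ± 1.48 (SE), or -3.23 ± 0.56 without the shallow libraries. The 0 in TAC replicate 2 is weak, since 3 reads there would equal 17.3 normalised reads, and sham replicate 2 rested on 2 reads. Of the further Pik3c2a circles tested, exons 20 to 21 had 2.97, 0, 1.03 and 0 in TAC against 0.758, 4.54, 1.66 and 4.09 in sham libraries, with a log2 fold change of -1.98 ± 1.57 (-1.11 ± 1.20 without the shallow libraries). Exons 3 to 4 had 0, 5.77, 0 and 1.27 in TAC against 0.379, 0, 3.31 and 2.92 in sham libraries. The 5.77 is 1 read of TAC replicate 2, and the log2 fold change of -0.47 ± 1.496 became -2.27 ± 1.27 without the shallow libraries. Exons 15 to 20 averaged 1.11 ± 0.82 in TAC and 0.849 ± 0.787 in sham hearts, with a log2 fold change of 0.35 ± 1.48 (0.46 ± 1.18 without the shallow libraries). All 3 overlapped between the groups, and the sign of the fold change of exons 3 to 4 and of exons 15 to 20 turned with the libraries used. Of the 22 Pik3c2a circles, 9 were seen in TAC libraries only, with 1 to 3 reads each, and 7 in sham libraries only, among them exons 18 to 19 with 9 reads, all in sham replicate 4.

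The palmitoyltransferase gene Zdhhc20 spread its reads over several circles. The leading circle of exons 4 to 7 had 1.49, 0, 0 and 1.91 normalised reads in TAC replicates 1 to 4, against 11.0, 4.54, 7.45 and 10.1 in sham replicates 1 to 4. The groups did not overlap, with means of 0.849 ± 0.995 in TAC and 8.28 ± 2.91 in sham hearts (SD, n = 4 each) and a log2 fold change of -3.73 ± 1.61 (SE), or -3.44 ± 0.82 without the shallow libraries. A longer circle that begins at exon 2 and ends at the same exon 7 had no read in any TAC library, against 12, 0, 4 and 60 reads, or 4.55, 0, 3.31 and 11.7 normalised reads, in sham replicates 1 to 4. Seen in only 3 libraries, it was not tested by limma, and 3 reads would equal 2.23, 17.3, 3.09 and 1.91 normalised reads in TAC replicates 1 to 4. Exons 2 to 4, 4 to 8 and 2 to 6 overlapped between the groups, with log2 fold changes of -1.84 ± 1.501, -1.68 ± 1.252 and -1.51 ± 1.09. Without the shallow libraries these were -0.92 ± 1.28, -2.24 ± 1.27 and -2.02 ± 1.13.

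Ehbp1 was the only one of the 6 genes whose leading circle was higher in TAC hearts. Its circle of exons 16 to 21 had 66.9, 11.5, 45.3 and 47.7 normalised reads in TAC replicates 1 to 4, against 1.14, 22.7, 1.66 and 2.14 in sham replicates 1 to 4. The groups overlapped through the shallow libraries alone: TAC replicate 2 rested on 2 reads and sham replicate 2 on 5, while the other 3 TAC libraries held 44 to 90 reads and the other 3 sham libraries 2 to 11. The circle averaged 42.9 ± 23.0 in TAC and 6.91 ± 10.5 in sham hearts (SD, n = 4 each), a log2 fold change of 3.42 ± 1.24 (SE). Without the shallow libraries it was 4.88 ± 0.53.

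The other Ehbp1 circles in the limma test were exons 9 to 11 and exons 18 to 21. Exons 9 to 11 had 5.95, 0, 7.20 and 6.996 normalised reads in TAC replicates 1 to 4, against 0.758, 0, 0 and 0.973 in sham replicates 1 to 4. The groups overlapped through the 0 of TAC replicate 2, and the log2 fold change was 2.64 ± 1.56, or 3.52 ± 0.98 without the shallow libraries. Exons 18 to 21 had 1.49, 0, 4.12 and 1.91 in TAC against 0.379, 4.54, 0 and 0 in sham libraries, where 1 read in sham replicate 2 made the highest value of both groups. Its log2 fold change was 1.21 ± 1.48, or 3.15 ± 1.27 without the shallow libraries. Of the 13 Ehbp1 circles, 9 were seen in TAC libraries only, among them exons 8 to 11 with 5, 0, 1 and 2 reads, and 1 was seen in sham libraries only, with 1 read.

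Of the polarity genes, Erbin had the most abundant circle of the set by the mean over the 8 libraries. In TAC hearts alone the Ehbp1 circle of exons 16 to 21 was higher, at a mean of 42.9 against 7.53. The Erbin circle of exons 2 to 4 had 14.1, 5.77, 5.15 and 5.09 normalised reads in TAC replicates 1 to 4, against 36.0, 13.6, 80.3 and 114 in sham replicates 1 to 4. The groups overlapped by a small margin, because sham replicate 2, which held 3 reads, lay just below TAC replicate 1. Means were 7.53 ± 4.41 in TAC and 60.9 ± 44.8 in sham hearts (SD, n = 4 each), with a log2 fold change of -2.72 ± 1.07 (SE), or -3.23 ± 0.43 without the shallow libraries. No other Erbin circle was seen in 4 libraries. Of the remaining 13, 5 were seen in sham replicate 4 alone with 10 to 16 reads each, among them exons 16 to 20 with 16 reads and exons 4 to 6 with 15.

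The Epb41l5 circle of exons 17 to 20 had 4.46, 0, 3.09 and 2.54 normalised reads in TAC replicates 1 to 4, against 11.4, 31.8, 7.45 and 14.2 in sham replicates 1 to 4. The groups did not overlap, and the highest value came from the shallow sham replicate 2, where it rested on 7 reads. Means were 2.52 ± 1.87 in TAC and 16.2 ± 10.8 in sham hearts (SD, n = 4 each), with a log2 fold change of -3.07 ± 1.49 (SE). Without the shallow libraries the fold change was -1.64 ± 0.61.

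**Figure D2:**
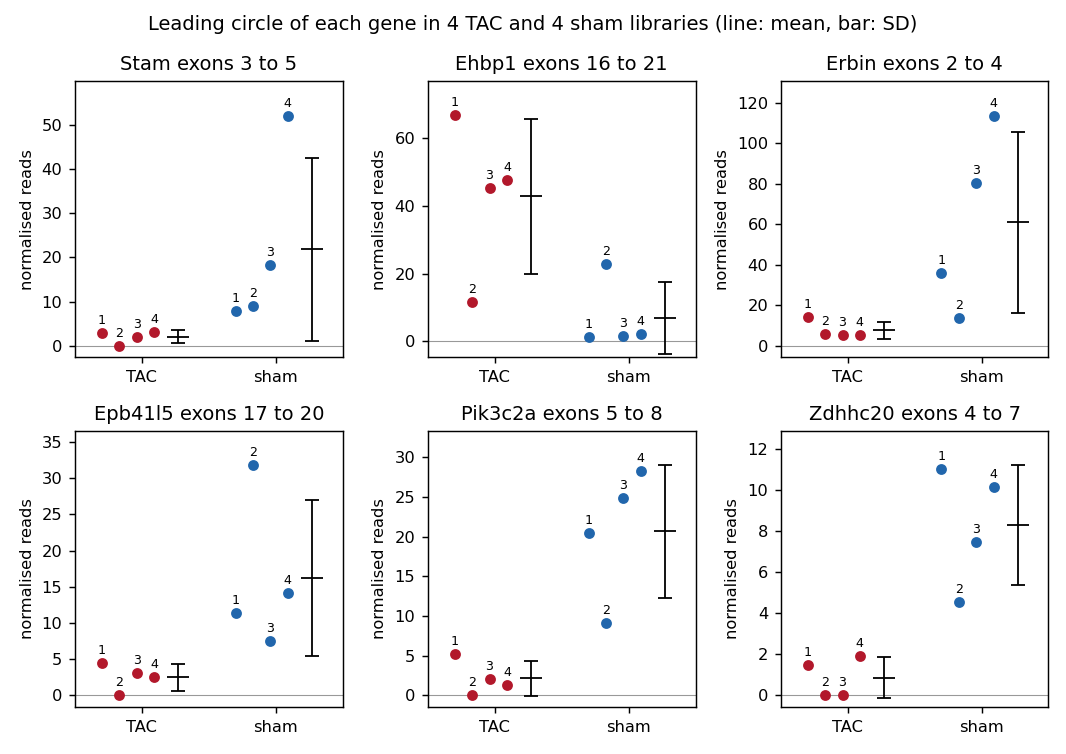
Levels of the 6 leading circles in normalised reads, with 1 point per library, the replicate number above it, and the group mean with its SD as a bar to the right of the points. For Stam, Epb41l5, Pik3c2a and Zdhhc20 all 4 TAC points lie below all 4 sham points, for Erbin 13.6 in sham replicate 2 lies below 14.1 in TAC replicate 1, and for Ehbp1 only 22.7 in sham replicate 2 reaches into the TAC range.

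Side by side, the leading circles of Stam, Epb41l5, Pik3c2a and Zdhhc20 were lower in every TAC library than in any sham library, a pattern found in 2.22% of the 3735 circles seen in at least 4 libraries. In TAC replicate 2 these 4 circles were all at 0, which at that depth allows up to 17.3 normalised reads. In no member circle was every TAC library above every sham library (0.884% of all circles tested). By limma, with p-values adjusted by Benjamini and Hochberg over all circles tested, none of the 15 member circles tested passed 0.05. The lowest adjusted p was 0.834, with 1 of 3735 circles called (0.0268%). At an unadjusted p under 0.05 by limma there were 6 of 15, the 6 leading circles, against 4.07% of all circles. The median log2 fold change of the 15 was -1.68, with 11 below 0 and 4 above, beside 0.15 over all circles tested. A circle that passes the filter through the group in which it is high had to differ, so these counts describe and do not test.

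The count test gave other calls than limma. By edgeR on the recovered whole reads, all 6 leading circles passed an adjusted p of 0.05, 5 lower and 1 higher in TAC. They were the only member circles that passed its filter, which asks for enough reads in at least 4 libraries. Zdhhc20 exons 2 to 7, with 76 reads in 3 libraries, did not pass it. Over all circles edgeR called 13.1% of 717, 5.72% lower and 7.39% higher. The edgeR log2 fold changes, with Benjamini-Hochberg adjustment, were -3.39 ± 0.87 (adjusted p = 0.00598) for Stam, -3.29 ± 0.87 (adjusted p = 0.00676) for Pik3c2a and -3.14 ± 0.89 (adjusted p = 0.0132) for Zdhhc20. For Ehbp1 edgeR gave 3.48 ± 0.89 (adjusted p = 0.00598), for Erbin -3.28 ± 0.88 (adjusted p = 0.00849) and for Epb41l5 -2.33 ± 0.78 (adjusted p = 0.0310). DESeq2 called 4 of the 8 member circles to which it gave an adjusted p, Ehbp1 higher and Stam, Erbin and Pik3c2a lower in TAC (1.02% of 1367 circles higher, 0.658% lower).

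The edgeR calls moved with the whole table when a library was left out. Without TAC replicate 1, 3 or 4, none of the 6 leading circles stayed past 0.05 by edgeR, and over all circles 9 of 708, 0 of 1111 and 9 of 721 did. All 6 stayed called without TAC replicate 2 (18.9% of 1216 circles) and without sham replicate 2 (21.9% of 1134 circles). The edgeR log2 fold changes without TAC replicates 1, 3 and 4 were -3.85, -3.04 and -2.76 for Pik3c2a and 3.30, 3.40 and 3.51 for Ehbp1, beside -3.29 and 3.48 with all libraries. The share of all circles called ran from 3.66 to 8.91% in the 3 fits without another sham library. Of the 8 fits that leave out 1 library, edgeR kept Pik3c2a and Zdhhc20 in 5, Stam in 4, Erbin in 3, and Ehbp1 and Epb41l5 in 2. Leaving out both shallow libraries raised the calls. Limma then called 6 of 15 member circles, 2 higher and 4 lower (8.13% and 3.52% of 3494 circles), and edgeR 8 of 8, 2 higher and 6 lower (16.4% and 13.6% of 1145). The calls that edgeR added were Ehbp1 exons 9 to 11, higher in TAC (adjusted p = 0.0124), and Zdhhc20 exons 2 to 7, lower in TAC (adjusted p = 0.00272). The Zdhhc20 circle had no read in any TAC library and passed the edgeR filter through its sham reads alone. Its p, like that of any circle that passes through its higher group, describes and does not test.

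Circle length moved with the groups and with these members. The 5 leading circles that were lower in TAC measured 319 to 456 nt and the higher one 742 nt, while TAC replicates 1, 3 and 4 drew their reads from longer circles than sham replicates 1, 3 and 4. With the length trend of each library removed before the limma fit, the 6 leading circles kept their signs: -3.12 ± 1.05 for Stam, -3.79 ± 1.03 for Pik3c2a, -3.53 ± 1.07 for Zdhhc20, 2.42 ± 1.097 for Ehbp1, -2.63 ± 0.98 for Erbin and -3.40 ± 1.08 for Epb41l5. The Ehbp1 value came down by the most of the 6. In that fit 7 of the 15 member circles had an unadjusted p under 0.05 by limma (9.27% of all circles) and 0 an adjusted one, as for all 3689 circles.

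**Figure D3:**
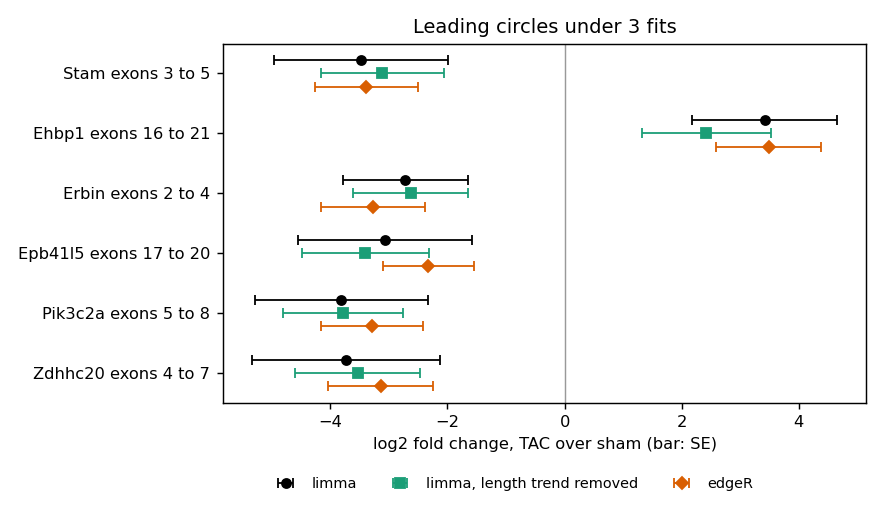
Log2 fold change of TAC over sham for the 6 leading circles under limma, limma with the length trend of each library removed, and edgeR, with the SE as a bar. For edgeR the bar is derived from the F statistic of the test. All points of Stam, Erbin, Epb41l5, Pik3c2a and Zdhhc20 lie left of 0 and all points of Ehbp1 right of 0; the Ehbp1 value is 3.42 by limma, 2.42 with the trend removed and 3.48 by edgeR.

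The Ehbp1 circle can be set against the other leading circles within each library, without any scaling between libraries. Such a share is a ratio and does not show whether the Ehbp1 circle rose or the others fell. Of the reads of the 6 leading circles, the Ehbp1 circle held 70.3% (90 of 128), 66.7% (2 of 3), 78.6% (44 of 56) and 77.3% (75 of 97) in TAC replicates 1 to 4. It held 1.29% (3 of 232), 25% (5 of 20), 1.18% (2 of 169) and 0.971% (11 of 1133) in sham replicates 1 to 4. Every TAC library was above every sham library, with means of 73.2 ± 5.68% in TAC and 7.11 ± 11.9% in sham hearts (SD, n = 4 each). The 95% Wilson interval of TAC replicate 2, from 20.8 to 93.9%, overlapped that of sham replicate 2, from 11.2 to 46.9%. Such intervals cover counting error only, as amplified reads are not independent molecules. The share is made of the values that set the genes apart in the first place and carries no test.

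**Figure D4:**
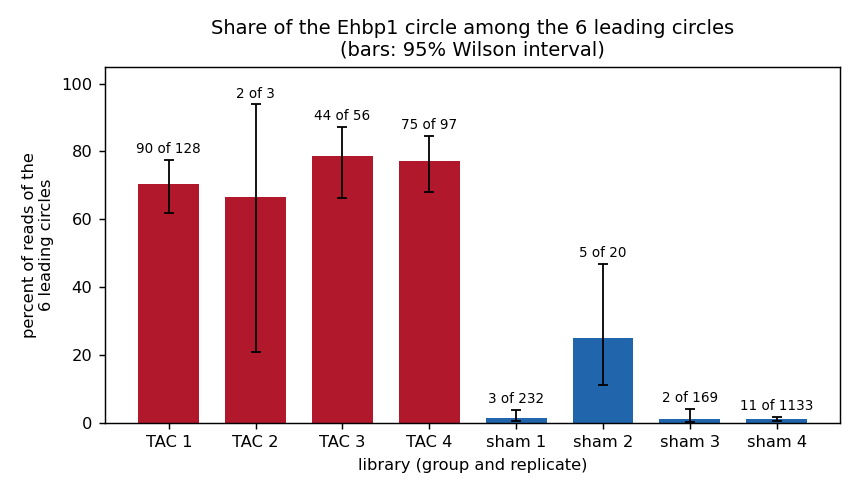
Percent of the reads of the 6 leading circles that came from the Ehbp1 circle in each library, with 95% Wilson intervals and the reads above each bar. The TAC libraries sit between 66.7 and 78.6%, sham replicates 1, 3 and 4 between 0.971 and 1.29%, and sham replicate 2 at 25% of 20 reads.

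Within each gene, the share of reads held by the leading circle showed whether the circle moved with the other circles of its gene. In Pik3c2a the leading circle held 41.2, 0, 28.6 and 12.5% of the gene's reads in TAC replicates 1 to 4, against 84.4, 66.7, 71.4 and 68.7% in sham replicates 1 to 4. No TAC library reached the lowest sham library, and the mean difference was -52.2 percentage points, with 20.6 ± 18.0% in TAC and 72.8 ± 7.96% in sham hearts (SD, n = 4 each). The exact two-sided permutation test gave p = 0.0286, the smallest that 4 against 4 allows, and 0.171 after Benjamini-Hochberg adjustment over the 6 genes. With that smallest p, a single gene among the 6 cannot get below 0.171, so the adjusted value says nothing about the size of the difference. The leading circle was picked by its mean over the same 8 libraries, 20.6 in sham and 2.13 in TAC hearts. That choice favours a larger share in sham hearts, so this p describes and does not test. TAC replicate 2 had 1 read of the gene. With libraries of at least 10 reads only, the difference was -48.0 points, in 2 TAC and 3 sham libraries.

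The other circles of Pik3c2a together had 7.44, 5.77, 5.15 and 8.90 normalised reads in TAC replicates 1 to 4, against 3.79, 4.54, 9.94 and 12.8 in sham replicates 1 to 4. These levels overlapped, with means of 6.81 ± 1.69 in TAC and 7.78 ± 4.35 in sham hearts (SD, n = 4 each), so the lower level in TAC libraries was seen in exons 5 to 8 and not in the sum of the rest. In Ehbp1 the rest of the gene went with the leading circle: it had 14.9, 0, 15.4 and 14.0 normalised reads in TAC against 1.52, 4.54, 0 and 0.973 in sham libraries. In Zdhhc20 the rest averaged 2.25 ± 2.49 in TAC and 12.2 ± 9.48 in sham hearts, and in Erbin 1.51 ± 1.86 in TAC and 5.14 ± 5.88 in sham hearts. In Stam the rest averaged 1.17 ± 1.51 in TAC and 1.06 ± 1.23 in sham hearts, and in Epb41l5 0.876 ± 1.08 in TAC and 0.622 ± 0.752 in sham hearts, levels of about 1 read. For these 5 genes the difference in the share of the leading circle lay between -22.5 and 9.69 percentage points, with exact two-sided permutation p-values between 0.171 and 0.743, and the Erbin difference was -4.18 points with all libraries and -23.3 with libraries of at least 10 reads of the gene. Since the leading circle helped to choose the genes and was itself picked by its mean over these libraries, this test is not independent of either choice.

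**Figure D5:**
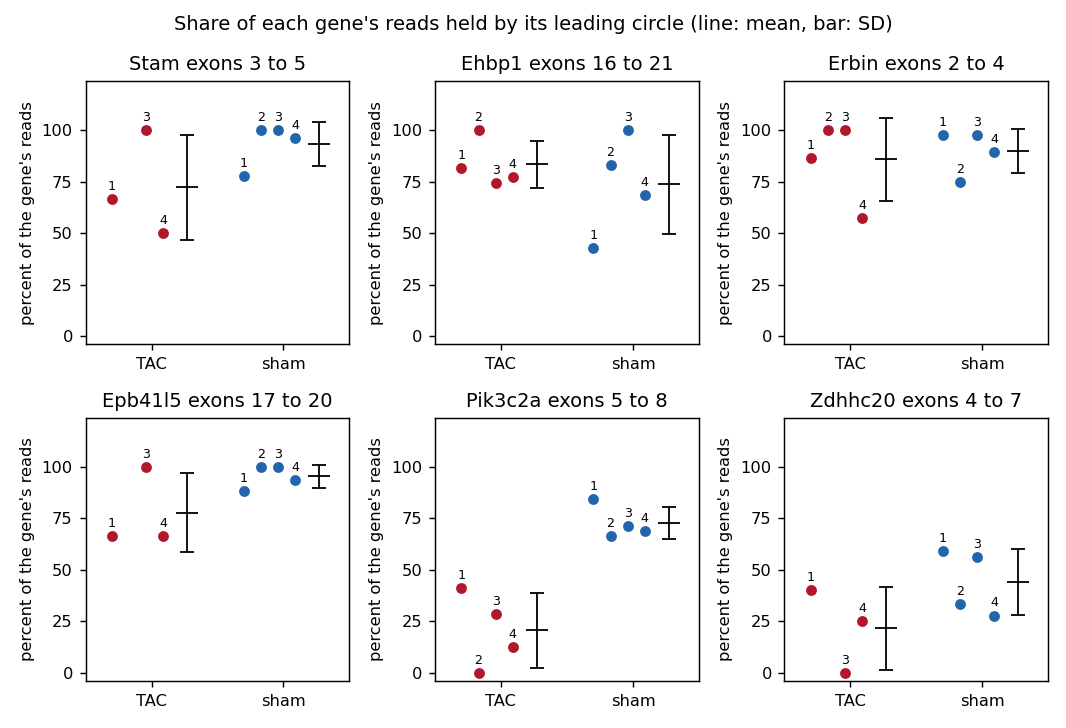
Percent of a gene's circular reads held by its leading circle, with 1 point per library that had a read of the gene, and the group mean with its SD beside the points. In Pik3c2a the TAC points lie between 0 and 41.2% and the sham points between 66.7 and 84.4%, while the points of the other genes overlap between the groups.

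Summed over all circles of a gene, the levels kept the same directions. In normalised reads, Stam averaged 3.22 ± 2.78 in TAC and 22.9 ± 21.2 in sham hearts, Pik3c2a 8.95 ± 3.07 in TAC and 28.4 ± 12.1 in sham hearts, and Zdhhc20 3.09 ± 3.41 in TAC and 20.5 ± 10.9 in sham hearts (SD, n = 4 each). Ehbp1 averaged 53.9 ± 29.9 in TAC and 8.67 ± 12.4 in sham hearts, Erbin 9.05 ± 5.14 in TAC and 66.0 ± 48.8 in sham hearts, and Epb41l5 3.40 ± 2.75 in TAC and 16.8 ± 10.5 in sham hearts. The 5 genes other than Ehbp1 were lower in every TAC library than in any sham library (1.89% of 2967 hosts). Limma called none of the 6 sums, each at an adjusted p of 0.9995 (0.0337% of hosts called), and 5 had an unadjusted p under 0.05 (3.03% of hosts). The edgeR test called all 6, 1 higher and 5 lower, where 3.33% and 4.9% of 1020 hosts were called. Without the shallow libraries limma called 5 of the 6 sums, all but Epb41l5, with 1 higher and 4 lower (9.82% and 2.57% of 2881 hosts), and edgeR all 6, 1 higher and 5 lower (10.9% and 10.7% of 1387 hosts). The limma log2 fold change of the Ehbp1 sum was then 4.70 ± 0.42, beside 3.22 ± 1.09 with all libraries, and that of the Epb41l5 sum -1.36 ± 0.52, beside -2.86 ± 1.42.

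With 1 library left out, edgeR called between 0.805% of 1366 hosts, without TAC replicate 3, and 16.7% of 1381, without sham replicate 2. By edgeR the Ehbp1 sum stayed past 0.05 in all 8 such fits, and the Erbin sum in 7, being lost without TAC replicate 3. The Zdhhc20 sum stayed called in 6, the Stam sum in 5, the Epb41l5 sum in 3 and the Pik3c2a sum in 2. In whole hearts, fewer cells of a type and less circular RNA per cell give the same value and cannot be told apart. No source used here states the strand of the libraries, so genes overlapping on the other strand were not separated.

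Across the 8 libraries the sums of the 6 genes ran most closely with each other or with a few other hosts, measured by Pearson's r of log2 values over 1725 hosts. Erbin was closest to Pik3c2a (r = 0.99) and Eed, a Polycomb subunit (r = 0.98). Zdhhc20 was closest to Appl1, an endosomal adaptor, and to Stam (r = 0.97 each). Stam ran with Dennd1a, a Rab35 exchange factor, and Atp5o, an ATP synthase subunit, and Epb41l5 with Dennd3, a Rab12 exchange factor, and Parva, an integrin-linked actin binder (r = 0.98 each). Ehbp1 ran with Dysf, a membrane repair protein, and Ttn, the giant sarcomere spring (r = 0.98 each), and the Dysf sum averaged 47.9 ± 9.54 in TAC and 22.3 ± 9.83 in sham hearts. All hosts of a library share its depth and size factor, and in the shallow libraries many hosts are at 0 together. Such r are therefore a description.

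Among other genes of the same pathways, limma called none and edgeR called 1 with all 8 libraries, and more were called without the shallow ones, as given list by list below. Of 30 further genes of endosomal sorting, 16 had circles and 6 were tested as host sums, with 5 below and 1 above 0 and a median log2 fold change of -0.44, beside 0.13 over all hosts. Tsg101, a subunit that binds ubiquitinated cargo, had a log2 fold change of -0.58 ± 1.48, Vps4b, the ATPase that disassembles the sorting complexes, -0.57 ± 1.57, and Mvb12b 0.39 ± 1.59. Limma and DESeq2 called none (0 at an unadjusted p under 0.05 by either), and no host of that list passed the edgeR filter. Leaving out the shallow libraries gave 3 above and 3 below 0 and a median of 0.19, beside 0.61 over all hosts. Among 27 tested hosts of endocytosis and recycling 15 were below and 12 above 0 (median -0.19), beside 1335 of all 2967 below. Without the shallow libraries 9 of 26 were below and 17 above (median 0.44), beside 930 of all 2881 below (median 0.61). Picalm, a clathrin assembly protein, averaged 30.7 ± 21.9 in TAC and 18.5 ± 3.02 normalised reads in sham hearts, and the sorting nexin Snx27 21.99 ± 16.1 in TAC and 13.8 ± 7.38 in sham hearts. Both were at 0 in TAC replicate 2, which put their limma log2 fold changes below 0 (-0.80 ± 1.097 and -0.56 ± 1.22). Limma called none of the 27 (2 at an unadjusted p under 0.05), and neither edgeR nor DESeq2 called any (0 of 10 at an unadjusted p under 0.05 by edgeR and 2 by DESeq2, where DESeq2 called 3.15% of all hosts). With the shallow libraries left out, limma called 4 of 26 higher (Itsn2, Picalm, Snx13 and Rab11fip5), and edgeR 1 of 16 lower, the clathrin adaptor subunit Ap2a1 (adjusted p = 0.0362). Over all hosts limma then called 9.82% higher and 2.57% lower, and edgeR 10.9% higher and 10.7% lower.

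The phosphoinositide enzymes lay on both sides of 0. Of 30 tested hosts 17 were above and 13 below 0, with a median log2 fold change of 0.12 and no call by limma, edgeR or DESeq2 (0 at an unadjusted p under 0.05 by limma, 1 of 8 by edgeR and 1 by DESeq2, where 24% of all hosts had such a p by edgeR). In the 6 deeper libraries 21 of 30 were above and 9 below 0 by limma (median 0.70, beside 0.61 over all hosts). Limma called 2 of 30 higher (Pip5k1b and Inpp4a), and edgeR 2 of 11, 1 higher and 1 lower (Inpp4a and Inpp5a). Pip5k1b was at 0 in sham replicate 4 and had an adjusted p of 0.496 by edgeR in these libraries. Limma then called 9.82% of all hosts higher, and edgeR 10.9% higher and 10.7% lower. The phosphatase Mtmr3 averaged 31.0 ± 17.1 in TAC and 28.7 ± 7.28 normalised reads in sham hearts, and Pi4ka, a phosphatidylinositol kinase of the plasma membrane, 10.5 ± 8.29 in TAC and 10.03 ± 5.72 in sham hearts. Of 7 tested palmitoylation enzymes 5 were above and 2 below 0 (median 0.09), and limma, edgeR and DESeq2 called none (0 at an unadjusted p under 0.05 by limma and 0 of 3 by edgeR, 0 by DESeq2). In the 6 deeper libraries 5 were again above and 2 below 0 by limma (median 0.12), and limma called 1 of 7, Zdhhc17, higher in TAC (9.82% of all hosts). Zdhhc17, the relative of Zdhhc20 with the most circular reads, averaged 42.0 ± 27.1 in TAC and 26.3 ± 15.5 in sham hearts.

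Among 22 tested polarity and FERM-domain hosts 14 were above and 8 below 0, with a median log2 fold change of 0.18. Limma and DESeq2 called none (0 at an unadjusted p under 0.05 by limma and 3 by DESeq2), and edgeR called 1 of 12, against 8.24% of all hosts (5 of 12 at an unadjusted p under 0.05 by edgeR, against 24%). That host was Epb41l2, a relative of Epb41l5 that anchors membrane proteins to spectrin and actin. It had 14.9, 0, 14.4 and 10.8 normalised reads in TAC replicates 1 to 4, against 0.758, 9.09, 0.828 and 1.56 in sham replicates 1 to 4. The groups overlapped through the shallow libraries only, and the edgeR log2 fold change was 2.53 ± 0.73 (adjusted p = 0.0173, Benjamini-Hochberg). The kinase Mark3 stood on the other side, with 10.5 ± 7.43 in TAC and 21.2 ± 9.37 in sham hearts and an edgeR log2 fold change of -1.31 ± 0.63 (adjusted p = 0.184). With the shallow libraries left out, edgeR called 4 of 14 of these hosts, Epb41l2 (adjusted p = 0.000986) and Tjp1 higher and Mark3 and Mark4 (adjusted p = 0.0148 each) lower in TAC. Limma then put 15 of 22 above and 7 below 0 (median 0.86, beside 0.61 over all hosts) and called 7 higher and 1 lower. Over all hosts edgeR called 10.9% higher and 10.7% lower in that setting, and limma 9.82% higher and 2.57% lower.

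Markers of heart cell types were summed in the same libraries, and their ranges overlapped between the groups for each list. Circles of all 8 cardiomyocyte markers were found, with sums of 289 to 1686 normalised reads in TAC and 169 to 800 in sham libraries. All 8 had a limma log2 fold change above 0, as did 1632 of 2967 hosts, with 1 called (0.0337% of hosts). Without the shallow libraries limma called 6 of the 8 higher, and 9.82% of 2881 hosts. In that fit all 5 tested endothelial markers were also above 0, with Pecam1 and Ptprb called higher. Of 2 tested leukocyte markers 1 was above and 1 below 0. With all libraries 3 of the 5 endothelial markers were above and 2 below 0. Fibroblast markers summed to 0 to 2.97 in TAC and 1.66 to 4.54 in sham libraries with 6 of 6 found, and endothelial markers to 0 to 49.0 in TAC and 11.4 to 40.9 in sham libraries with 6 of 6 found. Of the 5 smooth muscle and pericyte markers Rgs5 and Cspg4 were at 0 in every library, and the list summed to 0 to 5.77 in TAC and 0 to 0.379 in sham libraries. Of the 5 leukocyte markers Cd68 and Csf1r were at 0, and the list summed to 11.5 to 23.5 in TAC and 7.58 to 18.2 in sham libraries. Their part in the levels of the 6 genes was not tested.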

How the data were processed

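Reads across back-splice junctions were counted by the authors in hearts of 4 TAC and 4 sham mice. Replicates are separate mice, and their numbers follow the order of deposit and pair nothing. The deposited numbers are a signal, namely reads per circle that the authors divided by a size factor per library. This follows from the values, since 100% of them were whole multiples of the library's smallest value (tolerance 0.001), so whole reads were recovered. HISAT2, StringTie, DESeq2 and mm10 are named without roles, per the submitters' processing notes. In every library the deposited size factor equalled the one that DESeq2 computes from the recovered reads, from 0.173 in TAC replicate 2 to 5.14 in sham replicate 4. The circRNA caller was not named in the sources used here.

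The main test was limma 3.58.1 with a mean-variance trend, run on log2(value + 0.195) so that the smallest positive value served as pseudocount, for circles or host sums above 0 in at least 4 libraries. Its fold changes are on that scale, which shrinks those of low circles, while a 0 in a shallow library can enlarge them. The count test, edgeR 4.0.16 (quasi-likelihood, TMM, minimum count 5, minimum total 15), ran on the recovered reads and called 94 of 717 circles, and DESeq2 1.42.0 ran as a further alternative. Every ± beside an edgeR fold change is that fold change, without its sign, divided by the square root of the test's F statistic. It is not a fitted SE. Adjustment was by Benjamini-Hochberg over all features, with a threshold of 0.05. Lengths and exons came from GENCODE M21 (94.8% of circles matched). The length trend was a loess per library (span 0.5). Named circles are the leading circle per gene and those in at least 4 libraries; named pathway hosts are up to 3 per list by mean plus any called. Ehbp1 exons 8 to 11, Erbin exons 4 to 6 and 16 to 20, Pik3c2a exons 18 to 19 and Zdhhc20 exons 2 to 7 were named after their values were seen. The members and lists were chosen with earlier results of these data known. The edgeR fits with libraries left out were added after seeing the data. Linear RNA was not analysed here.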

Additional observations from a re-analysis of the deposited data

Results flagged for a closer look

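In 33 groups of 4 libraries the distance of the most extreme library from its nearest neighbour was compared with the range of the group. Of these, 4 stood out, where chance gives about 1 in 20 for independent groups of normally distributed values. The groups are not independent, since the sum of all Ehbp1 circles contains Ehbp1 exons 16 to 21, so the 4 cannot be weighed against that rate. Erbin exons 2 to 4 stood at 14.1 normalised reads in TAC replicate 1, against 5.09 to 5.77 in the other TAC libraries. Ehbp1 exons 16 to 21 stood at 22.7 normalised reads in sham replicate 2, a value of 5 reads, against 1.14 to 2.14 in the other sham libraries. The sum of all Ehbp1 circles stood at 27.3 normalised reads in the same library, against 1.66 to 3.11 in the others. The leading Stam circle held 77.8% of the Stam reads in sham replicate 1, against 96.4 to 100% in the other sham libraries.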

How the results depend on the processing

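Counts of called circles and hosts depended strongly on the test and on the shallow libraries. Limma called 1 circle, and 0 with a filter of 10 reads in 4 libraries, 0 with values rescaled by TMM, 0 with the length trend removed, 23 by DESeq2, 94 by edgeR and 407 without the shallow libraries. With 1 library left out limma called 0 to 41 circles, 0 without TAC replicate 1, 41 without TAC replicate 2 and 6 without sham replicate 2. For host sums limma called 1, and 0 with the filter of 10 reads, 0 with TMM, 30 by DESeq2, 84 by edgeR, 357 without the shallow libraries and 1 to 28 with 1 library left out, 28 without TAC replicate 2 and 6 without sham replicate 2. The edgeR count over circles ran from 0 without TAC replicate 3 to 248 without sham replicate 2, and was 9 without TAC replicate 1, 9 without TAC replicate 4 and 344 without both shallow libraries. The cause of these moves was not tested. The leading circles kept their sign in all of these fits. Among the other members the sign turned for Stam exons 2 to 5 (log2 0.25 without TAC replicate 2 or 3, against -0.26, in a range of -0.85 to 0.25 over these settings), for Pik3c2a exons 3 to 4 (0.32 with the length trend removed, 0.18 without TAC replicate 1 or 3, 0.11 and 0.05 without sham replicate 3 or 4, against -0.47, in a range of -1.46 to 0.18 with 1 library left out, and -2.27 without the shallow libraries) and for Pik3c2a exons 15 to 20 (-0.74 with the length trend removed, -0.03 without TAC replicate 4, -0.30 without sham replicate 2, against 0.35, in a range of -0.30 to 1.11 with 1 library left out). The difference in the share of the leading circle turned for Erbin (5.40 points without TAC replicate 4, against -4.18, in a range of -9.19 to 5.40 with 1 library left out, and -23.3 with libraries of at least 10 reads of the gene) and for Ehbp1 (-0.599 points without sham replicate 1, against 9.69, in a range of -0.599 to 18.4 over these settings), and that of Pik3c2a lay between -59.1 and -45.4 points under every setting. No paired analysis was possible because the labels give no replicate number shared between the groups. A circle with 1 or 2 reads in the shallow libraries cannot be placed there.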
